A study of Mus musculus with 14 samples.

Results

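Killer lectin-like receptors are surface proteins of natural killer (NK) cells with a C-type lectin-like domain, and 6 of their genes are described here in NK cells from 3 sources, namely the spleen of healthy mice, the spleen of mice with a tumour, and the tumour itself. The members, taken by name, were Klrk1, Klrg1, Klrb1f, Klri2, Klrc2 and Klrd1, and all 6 were among the 10210 genes of the deposited NK count table. Of them 5 passed the filter on low counts that left 8471 genes to be tested, and Klrc2 did not. All mice were BALB/c females, 8 weeks old by the labels. The healthy spleens (n = 3) came from mice without a tumour. The other spleens (n = 4) and the tumours (n = 4) came from mice given 100000 4T1-GFP cells, a transplanted mouse mammary carcinoma line that carries green fluorescent protein, in the lower left mammary fat pad. Time from injection to dissection, pooling of animals, and whether a spleen and a tumour came from the same mouse are not given in the sources used here. Tumours were digested with collagenase A and DNase for 20 minutes at 37 °C, and spleens were crushed and kept on ice, so tissue and digestion cannot be told apart. After magnetic enrichment the cells were sorted as negative for GFP, EPCAM, CD3, CD31 and CD14 and positive for CD45 and NKp46. The series compared these groups to learn the transcriptional state of NK cells inside this model of triple-negative breast cancer.

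NK cells weigh activating against inhibitory receptors, and most genes of this family lie in a single cluster, the NK gene complex, on mouse chromosome 6. Klrk1 encodes NKG2D, an activating receptor for stress-induced ligands of the RAE-1, H60 and MULT1 kind that signals through the adaptors DAP10 (Hcst) and DAP12 (Tyrobp). Klrd1 encodes CD94, which pairs with NKG2A (Klrc1, inhibitory), NKG2C (Klrc2, activating) or NKG2E (Klrc3) to bind the non-classical MHC molecule Qa-1 (H2-T23). Klri2 encodes a chain that pairs with the product of Klre1. Klrg1 encodes an inhibitory receptor for cadherins that marks mature NK cells, and Klrb1f a receptor of the NKR-P1 group, whose ligands are Clec2 proteins.

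In GENCODE M21 on GRCm38 (mm10, the build named in the submitters' processing notes) all 6 members are protein-coding genes of chromosome 6. Klrg1 lies apart from the others, at chr6:122270596-122282882 on the minus strand. Klrb1f lies at chr6:129045901-129057464 and Klrd1 at chr6:129591782-129598775, both on the plus strand. Klrk1 (chr6:129610323-129623864), Klrc2 (chr6:129647496-129660689) and Klri2 (chr6:129729041-129740484) follow on the minus strand. Klrb1f overlaps Gm43992 and Gm44000 on the other strand, neither of which the NK table lists, and the strand setting of the counting is not given in the sources used here. The libraries read the 3' ends of polyA RNA, so a count can be assigned to a gene only where its end is distinct. Of the 451 stretches of 50 bases in the last 500 bases of the Klrc2 transcript, 34.6% also occur in a Klrc1 or Klrc3 transcript. For Klri2 the share was 2.66%, with none of it shared with Klri1. It was 0% for Klrk1, Klrg1, Klrd1 and Klrb1f. In the reverse direction, 10.2% of the stretches in the end of the Klri1 transcript also occur in a Klri2 transcript. For the end of the Klrc1 transcript, 56.3% also occur in a Klrc2 transcript. These shares describe the C57BL/6 reference, and how reads of BALB/c alleles or reads that fit several genes were counted is not given in the sources used here.

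The last 90 coding bases before the stop codon are printed for the Klrc and Klri genes, because these are the members with the closest relatives. They run 5′ to 3′ on the coding strand, and capitals mark bases that differ from the first gene of each set. Positions are chr6:129656374-129656463 for Klrc2, chr6:129674862-129674951 for Klrc1, chr6:129639088-129639177 for Klrc3, chr6:129732144-129732233 for Klri2 and chr6:129697302-129697391 for Klri1, all on the minus strand.
Klrc2: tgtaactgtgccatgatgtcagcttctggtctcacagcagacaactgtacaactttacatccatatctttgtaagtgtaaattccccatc
Klrc1: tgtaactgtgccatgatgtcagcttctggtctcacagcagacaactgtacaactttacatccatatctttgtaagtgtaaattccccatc
Klrc3: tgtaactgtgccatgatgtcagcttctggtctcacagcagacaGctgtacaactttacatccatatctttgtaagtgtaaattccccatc
Klri2: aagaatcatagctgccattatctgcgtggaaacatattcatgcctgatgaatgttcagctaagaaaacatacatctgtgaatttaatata
Klri1: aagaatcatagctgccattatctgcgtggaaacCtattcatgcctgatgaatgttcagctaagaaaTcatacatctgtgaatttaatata
Over these bases Klrc1 had 0 differences from Klrc2, Klrc3 had 1, and Klri1 had 2 from Klri2. Over the whole aligned coding sequence Klrc2 was 94.9% identical to Klrc3 and 83.1% to Klrc1, and Klri2 was 76.5% identical to Klri1. Klrb1f was 70.8% identical to Klrb1a.

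Total counts of the NK libraries ran from 559688 to 1966963, and a limit of 3 counts, which a count of 0 allows, was 1.54 to 4.62 CPM. CPM are counts per 1e6 of a library's total after TMM scaling. All 8 NK markers were listed, and their share of counts was 2.64% to 2.97% in the spleen libraries and 1.92% to 2.25% in the tumour libraries. A second principal component, with 15.3% of the variance, parted healthy spleen replicate 1 and tumour-bearing spleen replicates 1 and 2 (positive scores) from the other 4 spleen libraries (negative scores). The labels name no batch that matches, so results that it touches are given with it below, and its cause was not tested. The sides of this split were read from these same counts. Fits against the libraries of a single side therefore understate the spread between libraries, and their adjusted p values are too small. Calls rest on edgeR's quasi-likelihood test, at 0.05 after Benjamini-Hochberg adjustment over every tested gene, and intervals of fold changes are at 95%. In tumour against tumour-bearing spleen 4 of the 8 NK markers were called lower and 1 higher, beside 13.2% and 15.8% of tested genes. Against healthy spleen 2 were lower and 2 higher, beside 14.0% and 16.5%. Gzma, the highest of the 8, was at 17180, 17490 and 13270 CPM on average in healthy spleen, tumour-bearing spleen and tumour. It was not called in any comparison.

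Klrg1 was the member that differed most between tumour and spleen NK cells. Its level was 488, 555 and 493 CPM in the healthy spleens and 483, 558, 634 and 540 CPM in the tumour-bearing spleens. In tumours it was 176, 142, 185 and 214 CPM. Each tumour library lay below each spleen library, by a wide margin, whereas the spleen groups overlapped. From tumour-bearing spleen (554 ± 62.3 CPM, SD, n = 4) to tumour (179 ± 29.6 CPM, SD, n = 4) it fell by 1.62 on the log2 scale (SE 0.143, interval -1.92 to -1.32, 3.08-fold lower, edgeR adjusted p = 5.40e-08). Against healthy spleen (512 ± 37.5 CPM, SD, n = 3) it fell by 1.51 (SE 0.152, interval -1.83 to -1.19, edgeR adjusted p = 3.13e-07). Groups that do not overlap in this direction were found for 13.3% of tested genes against tumour-bearing spleen and for 16.3% against healthy spleen. Klrg1 levels were alike on both sides of the spleen split: the positive-score libraries had 0.932 times the level of the others in healthy and 0.886 times in tumour-bearing spleens. Fewer Klrg1-expressing cells and less Klrg1 RNA per cell cannot be told apart in bulk libraries.

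**Figure D1:**
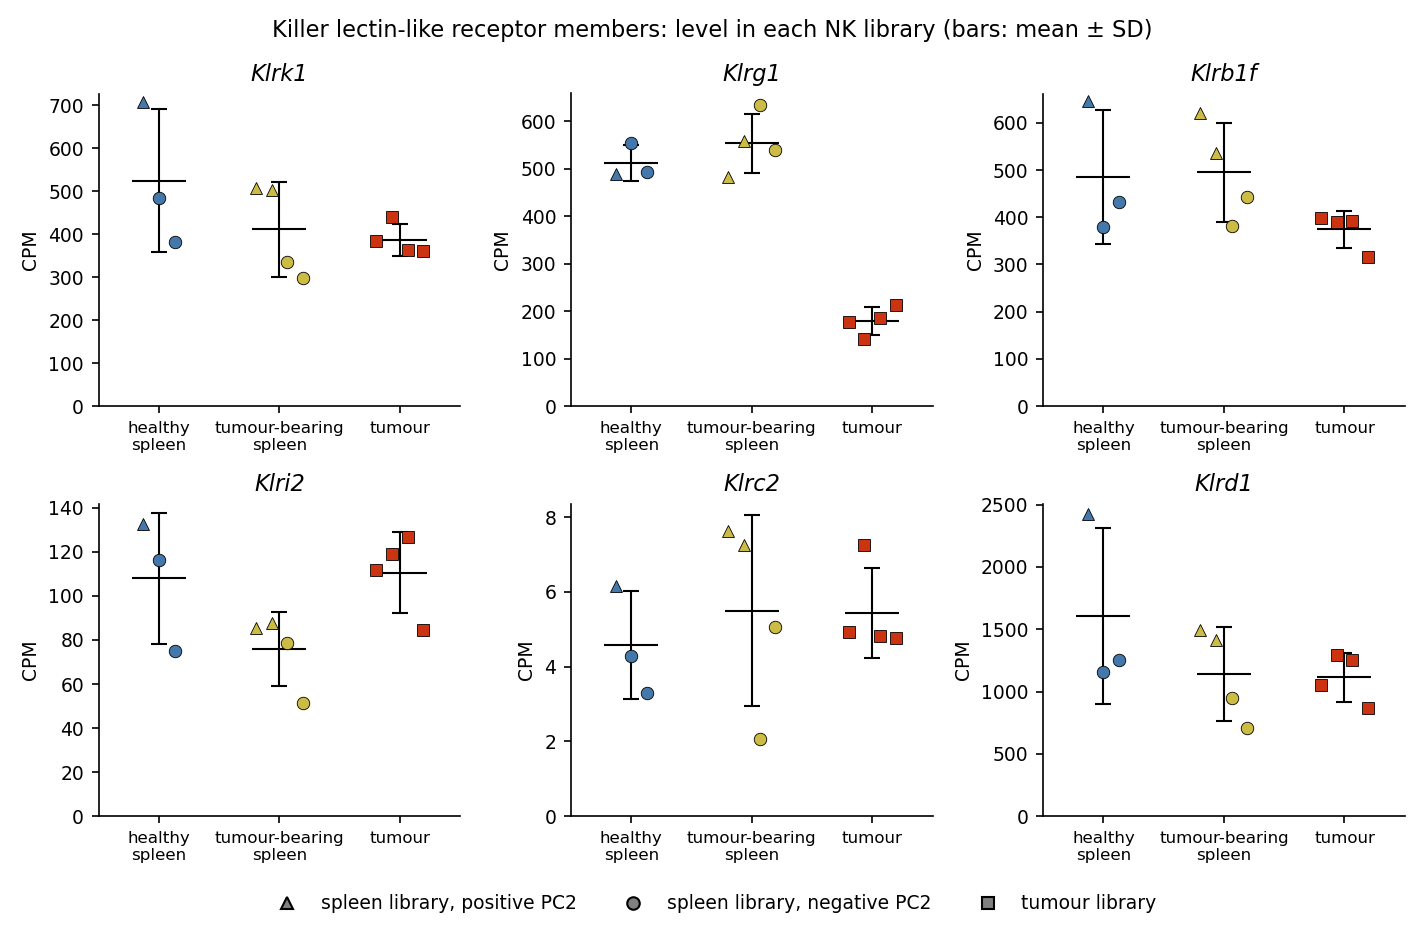
Level of each of the 6 members (CPM, linear axis from 0) in every NK library of the 3 groups, with the mean and SD of each group as bars. Triangles are spleen libraries with a positive score on the second principal component, circles those with a negative score and squares tumour libraries. The Klrg1 panel shows all 4 tumour libraries between 142 and 214 CPM, below all 7 spleen libraries, while in the Klrd1 and Klrk1 panels the groups overlap and the triangles are the highest points of each spleen group.

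Genes tied to late NK maturation were also lower in tumours. Like that of early NK stages below, the list of these genes was chosen with earlier results of these data known. Its counts describe these libraries and carry no test. Of the 9 on the list, 7 fell from tumour-bearing spleen to tumour and none rose, with a median log2 change of -1.10 beside 0.00 over all tested genes, of which 13.2% were called lower. They were the egress receptor S1pr5 (-3.08), the chemokine receptor Cx3cr1 (-2.37), the protease Cma1 (-2.25), the transcription factors Prdm1 (-1.12) and Tbx21 (-0.49), the integrin Itgam (-0.94) and Spn (-0.64). Zeb2 (-1.10, edgeR adjusted p = 0.117) and Ly6c2 (0.08, edgeR adjusted p = 0.774) did not pass the test. Against healthy spleen, where 14.0% of tested genes were called lower, 7 fell as well, with Zeb2 in place of Tbx21, although the Cx3cr1 call was lost without healthy spleen replicate 2 or tumour replicate 3 (edgeR adjusted p = 0.0507 and 0.0658). The Zeb2 call was lost without healthy spleen replicate 2 or tumour replicates 1, 2 or 4 (edgeR adjusted p from 0.0560 to 0.367), and with DESeq2 (adjusted p = 0.0535). Of 8 genes tied to early NK stages 5 rose in both comparisons, where 15.8% and 16.5% of tested genes were called higher. Against tumour-bearing spleen Emb rose by 2.53, Kit by 1.87, the chemokine Xcl1 by 1.75, the transcription factor Tcf7 by 0.88 and Thy1 by 0.87. Cd27 was at -0.07, Ltb at 0.40 and Il7r at 1.503, none of them past the test. In tumour-bearing against healthy spleen, 3 of the 8 early genes were called higher, where 1.23% of tested genes were. They were Kit (1.208, edgeR adjusted p = 0.00649), Xcl1 (1.541, edgeR adjusted p = 7.25e-04) and Thy1 (1.089, edgeR adjusted p = 0.00161). The Kit call was lost without healthy spleen replicate 2 (1.307, edgeR adjusted p = 0.0537). Of the 9 mature genes 1 was called between the spleens, Cx3cr1, which was higher (1.603, edgeR adjusted p = 2.12e-04). Its log2 change in tumours was -2.37 against tumour-bearing and -0.77 against healthy spleen.

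Over the 11 NK libraries, the genes whose log2 CPM ran most closely with Klrg1 were Cma1 (r = 0.985), the integrin chain Itgb2 (r = 0.982) and the interleukin 10 receptor chain Il10ra (r = 0.981). These correlations describe libraries that share their groups, and carry no test. Markers of another innate lymphoid type, ILC1, had a higher summed share in tumours, where Klrg1 was lower. Of that list 5 of 6 genes were listed, and their summed share was 0.0196% to 0.0212% in tumours beside 0.003% to 0.0123% in all spleens. Rora, Tnfsf10 and Cd200r1 rose in tumours, although Cd200r1 levels overlapped with those of the spleens. Il7r, also among the early NK genes above, was not called in either tumour comparison. Itga1, a defining ILC1 integrin, had 5 to 8 counts a library in tumours and 0 to 2 in spleens. Eomes, which conventional NK cells express and ILC1 lack, was at 629 ± 57.7 CPM (SD, n = 4) in tumours, 450 ± 122 (SD, n = 4) in tumour-bearing and 566 ± 212 (SD, n = 3) in healthy spleens, and was not called. The part of ILC1 in the Klrg1 result was not tested. Neutrophil (3 of 5 listed), macrophage (6 of 7) and carcinoma markers (2 of 5) also had higher shares in tumours than in spleens, each list at most 0.0205% of a library. T cell markers (4 of 11 listed) had a share of 0.00661% to 0.00892% in healthy spleens, 0.0121% to 0.015% in tumour-bearing spleens and 0.00836% to 0.0149% in tumours. Of these Cd3d, a chain of the T cell receptor complex, was higher in tumour-bearing than in healthy spleen (1.47, edgeR adjusted p = 0.00446), and no dendritic cell marker was listed.

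**Figure D2:**
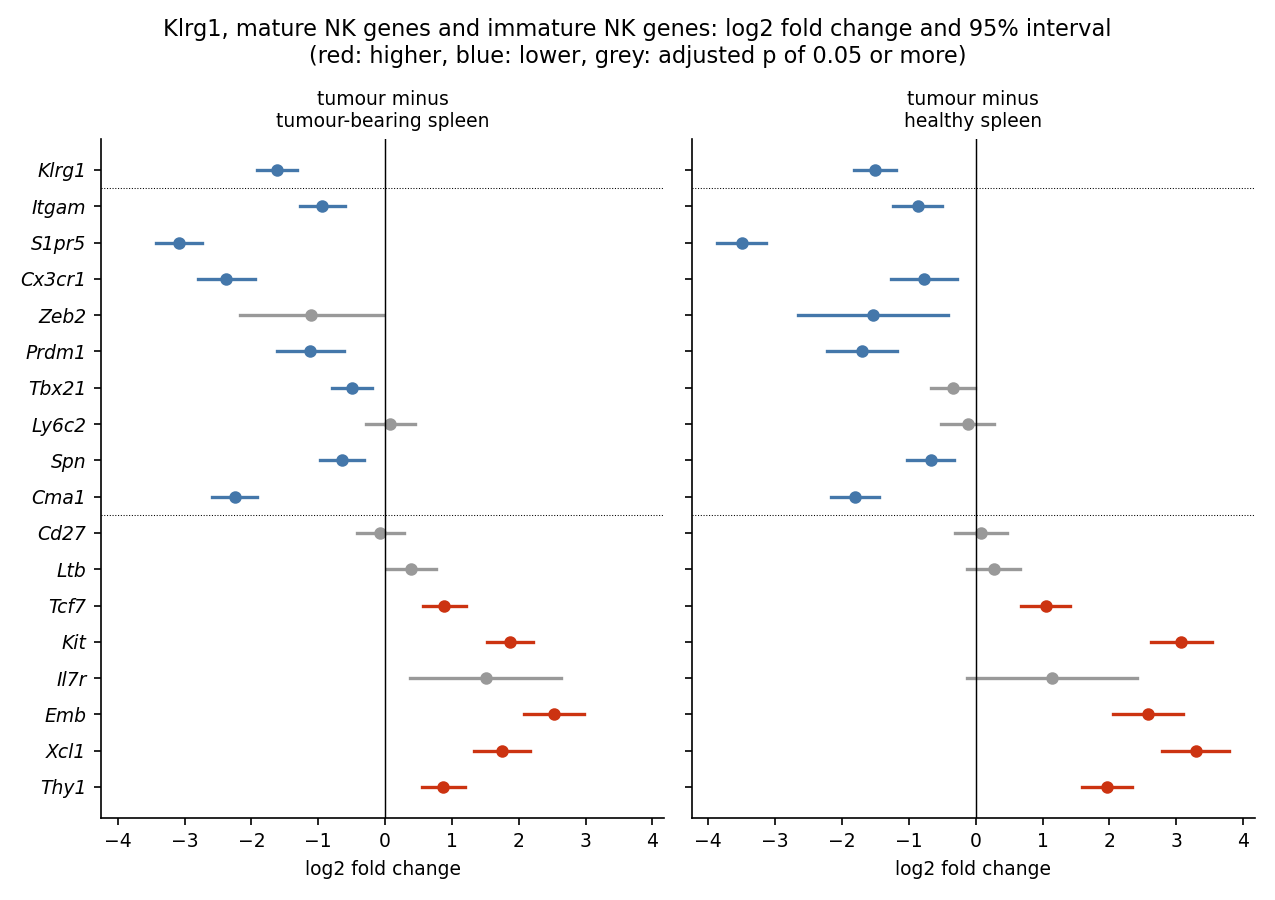
Log2 fold change (points) and 95% interval (lines) of Klrg1, of 9 genes of mature and of 8 genes of immature NK cells, for tumour minus tumour-bearing spleen (left) and tumour minus healthy spleen (right). Blue is lower and red higher at an adjusted p under 0.05, and grey is not called; the Klrg1 change of -1.62 on the left lies within the range of the mature genes, from -3.08 to 0.08.

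CD94, the shared chain of the NKG2A and NKG2C receptors, varied more within groups than between them. The Klrd1 level was 2421, 1154 and 1252 CPM in healthy spleens, 1498, 1412, 947 and 706 CPM in tumour-bearing spleens, and 1053, 1291, 1251 and 867 CPM in tumours. All groups overlapped, and the highest library of each spleen group had a positive score on the second component. The fitted difference between tumour and tumour-bearing spleen was -0.03 on the log2 scale, with an interval of -0.63 to 0.57 (edgeR adjusted p = 0.947). Between tumour and healthy spleen it was -0.52, interval -1.17 to 0.12 (edgeR adjusted p = 0.209). Positive-score spleen libraries had 2.01 times the Klrd1 level of the others in healthy mice and 1.76 times in tumour-bearing mice.

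NKG2D, the activating receptor encoded by Klrk1, showed the same arrangement at the RNA level. Klrk1 was at 707, 484 and 383 CPM in healthy spleens, 507, 504, 336 and 299 CPM in tumour-bearing spleens, and 385, 441, 363 and 361 CPM in tumours. The tumour libraries lay within the range of the spleen libraries. Tumour minus tumour-bearing spleen was -0.09, interval -0.50 to 0.33 (edgeR adjusted p = 0.774). Tumour minus healthy spleen was -0.43, interval -0.88 to 0.01 (edgeR adjusted p = 0.134), and it passed the test without healthy spleen replicate 3 (-0.61, edgeR adjusted p = 0.0471). Positive-score spleen libraries had 1.63 and 1.59 times the level of the others in healthy and tumour-bearing mice.

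Klrk1 and Klrd1 ran together across libraries (r = 0.919 over 11 libraries, log2 CPM), while Klrg1 ran with neither (r = 0.185 with Klrk1 and 0.09 with Klrd1). Klrb1f correlated with Klrd1 at 0.725 and with Klrk1 at 0.704, and Klri2 with Klrd1 at 0.648. The genes closest to Klrd1 were the Ly49 receptor genes Klra3 (r = 0.988) and Klra9 (r = 0.969), followed by Ogt (r = 0.959). Among those closest to Klrk1 were Zscan26 (r = 0.957) and Nbr1 (r = 0.946). Klra3 and Klra9 differed between the sides of the spleen split in the same direction as Klrd1: the ratio was 2.48 and 1.99 for Klra3, and 2.28 and 2.30 for Klra9, in healthy and tumour-bearing mice. These correlations are descriptions over libraries that share groups and sides, and no shared control follows from them.

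**Figure D3:**
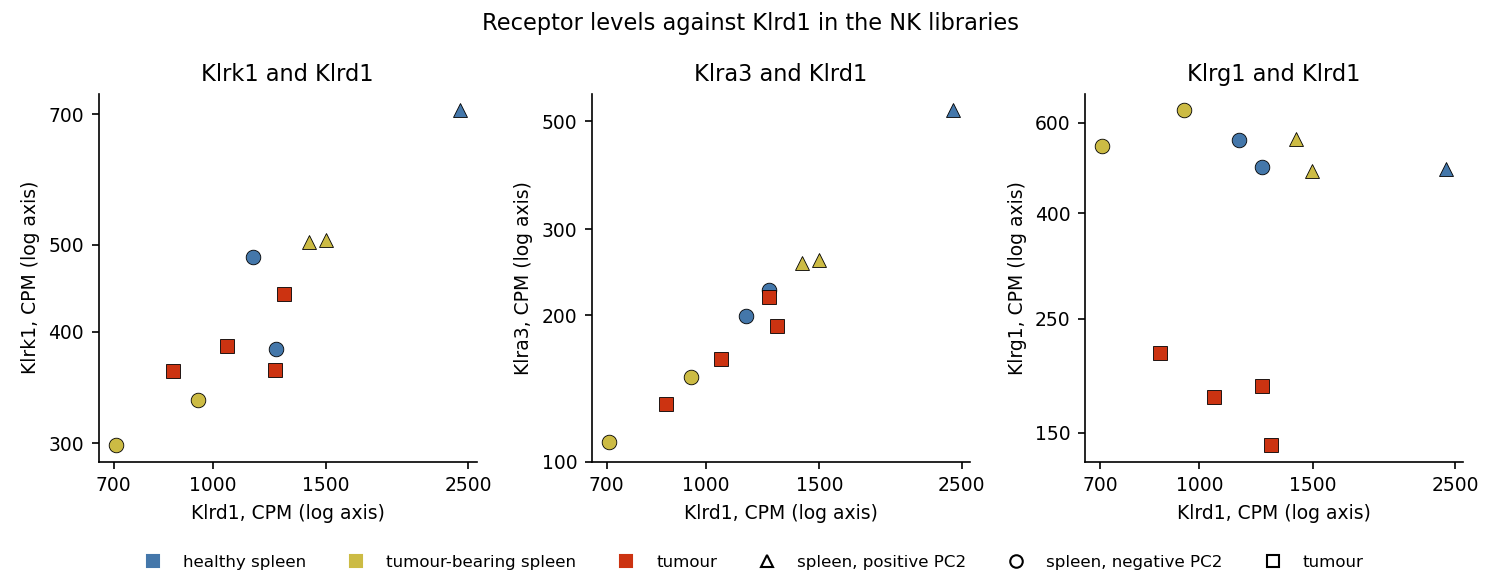
Level of Klrk1, Klra3 and Klrg1 against Klrd1 in the 11 NK libraries (CPM, log axes), with colour for the group and shape for the sign of the second-component score. Klrk1 (r = 0.919) and Klra3 (r = 0.988) follow Klrd1 through all groups, whereas Klrg1 (r = 0.09) separates into tumour and spleen libraries at equal Klrd1 levels.

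NKG2C, the activating partner of CD94, was close to the limit of these libraries. Klrc2 had 4, 8 and 4 counts in healthy spleens, 10, 13, 4 and 7 in tumour-bearing spleens, and 6, 5, 8 and 5 in tumours. These correspond to 4.58 ± 1.46 (SD, n = 3), 5.50 ± 2.56 (SD, n = 4) and 5.43 ± 1.21 CPM (SD, n = 4), and all groups overlapped. Without the filter on low counts, tumour minus tumour-bearing spleen was -0.06 with an interval of -0.96 to 0.84. A difference within that interval was not detectable at this depth. Klrc1, a gene with 148 to 363 CPM, has the identical coding end printed above and shares 56.3% of its transcript end with Klrc2. The origin of the few Klrc2 counts is thus uncertain, as is the split of counts between these 2 genes.

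The Klrc1 gene of the inhibitory NKG2A chain was at 232 ± 86.5 CPM (SD, n = 3) in healthy spleens, 219 ± 72.7 (SD, n = 4) in tumour-bearing spleens and 269 ± 87.3 (SD, n = 4) in tumours. Its log2 difference was 0.29 between tumour and tumour-bearing spleen, interval -0.39 to 0.98, and was not called. Klrc3 (NKG2E) was at -0.31, interval -0.88 to 0.26. With the 3 Klrc genes summed the difference was 0.22 (SE 0.292, edgeR adjusted p = 0.615), so summing the relatives gave no call.

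Klri2 was higher in tumours than in tumour-bearing spleens, by a small margin. Its level was 132, 116 and 75.1 CPM in healthy spleens, 85.4, 87.6, 78.8 and 51.4 CPM in tumour-bearing spleens, and 112, 119, 127 and 84.6 CPM in tumours. Tumour replicates 1 to 3 lay above every tumour-bearing spleen library, and tumour replicate 4 lay among them. The difference was 0.54 on the log2 scale (SE 0.192, interval 0.14 to 0.94, 1.46-fold, edgeR adjusted p = 0.0413). Against healthy spleen it was 0.05, interval -0.39 to 0.49 (edgeR adjusted p = 0.875). The call did not hold without tumour-bearing spleen replicates 1, 3 or 4 or tumour replicates 1, 2 or 3 (0.39 to 0.57, edgeR adjusted p from 0.0604 to 0.138), nor with upper-quartile scaling, without the filter or with DESeq2. Against tumour-bearing spleen replicates 1 and 2 alone it was 0.35 (edgeR adjusted p = 0.166), and against replicates 3 and 4 alone 0.72 (edgeR adjusted p = 0.00496). These replicates were picked by side from the same counts, so both adjusted p values are too small. Positive-score libraries had 1.39 times the Klri2 level of the others in healthy and 1.33 times in tumour-bearing spleens. With Klri1 and Klri2 summed the difference was 0.38 (SE 0.179, edgeR adjusted p = 0.122).

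The log2 ratio of Klri2 to Klrd1 counts within a library, a measure added after the data were seen, was -3.33 ± 0.084 (SD, n = 4) in tumours and -3.87 ± 0.242 (SD, n = 4) in tumour-bearing spleens. These groups did not overlap, and the exact two-sided permutation test gave p = 0.0286, the smallest that 4 against 4 libraries allow, which is 0.114 after Benjamini-Hochberg adjustment over 12 such ratios. The ratios of Klrg1 (difference -1.65) and Klrb1f (-0.40) to Klrd1 gave the same exact permutation p = 0.0286 in this comparison, and the Klri2 ratio against healthy spleen gave an exact permutation p = 0.171. Klre1, which encodes the partner chain, did change: it was at 762 ± 45.1 CPM (SD, n = 3) in healthy spleens, 638 ± 65.9 (SD, n = 4) in tumour-bearing spleens and 363 ± 30.0 (SD, n = 4) in tumours. It fell by 0.81 against tumour-bearing spleen (edgeR adjusted p = 8.14e-05) and by 1.07 against healthy spleen (edgeR adjusted p = 7.45e-06). Klri1, which encodes the other chain that pairs with the Klre1 product, was at 0.06, interval -0.42 to 0.54, against tumour-bearing spleen. The genes closest to Klri2 over the 11 libraries were Hnrnpu (r = 0.93), Bnip3 (r = 0.911) and Zpr1 (r = 0.885).

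Klrb1f did not pass the test in any of the 3 comparisons. It was at 646, 378 and 432 CPM in healthy spleens, 621, 536, 382 and 443 CPM in tumour-bearing spleens, and 399, 390, 393 and 316 CPM in tumours. The tumour libraries lay at the low end of both spleen groups and overlapped them. Tumour minus tumour-bearing spleen was -0.40, interval -0.77 to -0.04 (edgeR adjusted p = 0.0931), and tumour minus healthy spleen was -0.37, interval -0.76 to 0.03 (edgeR adjusted p = 0.157). The first passed the test with only those 2 groups in the fit (-0.42, edgeR adjusted p = 0.0383), with upper-quartile scaling (-0.51, edgeR adjusted p = 0.0396) and without tumour-bearing spleen replicate 3 (-0.52, edgeR adjusted p = 0.0485). It also passed against tumour-bearing spleen replicates 1 and 2 alone (-0.64, edgeR adjusted p = 0.00175), but against replicates 3 and 4 alone it was -0.17 (edgeR adjusted p = 0.392). As these replicates were picked by side from the same counts, both adjusted p values are too small. Positive-score libraries had 1.59 times the Klrb1f level of the others in healthy and 1.40 times in tumour-bearing spleens. The genes closest to Klrb1f were Itih5 (r = 0.926), Atp1b1 (r = 0.918) and Pot1b (r = 0.911).

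The other NKR-P1 genes moved apart from each other. Klrb1a, of the activating NKR-P1A, was at 381, 411 and 398 CPM in healthy spleens, 490, 506, 515 and 500 CPM in tumour-bearing spleens and 192, 213, 188 and 246 CPM in tumours. It fell in tumours by 1.26 against tumour-bearing (edgeR adjusted p = 2.35e-07) and by 0.92 against healthy spleen (edgeR adjusted p = 2.77e-05), with no overlap. Groups without overlap in this direction were found for 13.3% and 16.3% of tested genes in these 2 comparisons. Klrb1c, the gene of the NK1.1 antigen in C57BL/6 mice, fell by 0.68 (edgeR adjusted p = 1.67e-04) and 1.13 (edgeR adjusted p = 9.88e-07). From healthy to tumour-bearing spleen Klrb1c was at -0.45 (interval -0.70 to -0.20, edgeR adjusted p = 0.0721), which DESeq2 called lower (adjusted p = 0.00411). Klrb1b, of the inhibitory NKR-P1B, rose instead. It was at 16.9, 20.9 and 15.7 CPM in healthy spleens, 61.7, 69.2, 46.8 and 87.5 CPM in tumour-bearing spleens and 88.5, 62.3, 57.1 and 125 CPM in tumours. It was thus higher in every library of the tumour-bearing mice, spleen or tumour, than in any healthy spleen. Such a separation was found upward for 6.52% of tested genes between the spleens, where 1.23% were called higher, and for 18.5% between tumour and healthy spleen. The log2 change was 1.85 between the spleens (SE 0.303, edgeR adjusted p = 0.00330) and 2.18 between tumour and healthy spleen (SE 0.305, edgeR adjusted p = 3.54e-05), and 0.33 between tumour and tumour-bearing spleen (interval -0.16 to 0.82, not called). The share of T cell markers also did not overlap between the spleens, and its part in the Klrb1b difference was not tested. Klrb1b and Klrb1c both overlap Gm44511 on their own strand, which the NK table does not list.

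Between tumour-bearing and healthy spleens none of the 5 tested members was called, where 1.58% of all tested genes were. In edgeR 1 member, Klri2, had an unadjusted p under 0.05, as did 951 of the 8471 tested genes, with a log2 difference of -0.49 and an edgeR adjusted p of 0.354, and DESeq2 called 0. The other differences were 0.11 for Klrg1 (interval -0.20 to 0.42), 0.04 for Klrb1f (interval -0.36 to 0.43), -0.34 for Klrk1 (interval -0.79 to 0.10) and -0.49 for Klrd1 (interval -1.13 to 0.15). The count of 134 called genes behind that share rested on some libraries, being 42 without healthy spleen replicate 2 and 67 without healthy spleen replicate 3. With the side of the split as a block in a fit of the 7 spleen libraries, 3 of 6 members were called lower in tumour-bearing mice, where 2.99% of 8282 tested genes were lower and 8.34% were called in all. The side was read from the same counts and matches no label, so that fit understates the spread between libraries and its adjusted p values are too small. Klrd1 was at -0.62 (interval -0.85 to -0.38, edgeR adjusted p = 3.90e-04), Klri2 at -0.58 (interval -0.87 to -0.28, edgeR adjusted p = 0.0101) and Klrk1 at -0.46 (interval -0.68 to -0.25, edgeR adjusted p = 0.00418). Within the positive-score libraries the Klrd1 level was 2421 CPM in the healthy mouse and 1498 and 1412 CPM in tumour-bearing mice. Within the others it was 1154 and 1252 against 947 and 706 CPM, so the values did not overlap within either side. Klrk1 did not overlap within either side either, at 707 against 507 and 504 CPM and at 484 and 383 against 336 and 299 CPM. The share of all tested genes that separate within both sides was not counted. As the sides were read from the same counts, this separation is a description and adds nothing to the calls. Klri2 overlapped among the negative-score libraries, with 116 and 75.1 CPM in healthy against 78.8 and 51.4 CPM in tumour-bearing mice. Klrg1 (0.14, edgeR adjusted p = 0.484) and Klrb1f (-0.05, edgeR adjusted p = 0.858) were not called in that fit. A single healthy library stands on the positive side.

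Counted together, 1 of the 5 tested members was higher (Klri2) and 1 lower (Klrg1) in tumour than in tumour-bearing spleen, where 29.0% of all tested genes were called, 15.8% higher and 13.2% lower. Against healthy spleen 1 was lower and none higher, where 30.5% were called, 16.5% higher and 14.0% lower. Members called were thus near the background share, and the median log2 difference over the 5 was -0.09 and -0.43, beside 0.00 and 0.02 over all tested genes. With upper-quartile scaling the called genes split into 1091 higher and 1530 lower against tumour-bearing spleen, where TMM gave 1338 and 1115. Against healthy spleen they split into 1154 and 1569, where TMM gave 1399 and 1183. Both comparisons share the tumour libraries.

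Of 32 lectin-like receptor genes on the family list, members included, 23 were listed and 17 tested. In tumour against tumour-bearing spleen 1 rose (Klri2) and 4 fell (Klrg1, Klrb1a, Klrb1c and Klre1), with a median of -0.09. In tumour against healthy spleen those 4 fell again and Klrb1b rose, with a median of -0.42, and between the spleens only Klrb1b was called among the 17. The 5 of 17 called in each tumour comparison are near the 29.0% and 30.5% over all tested genes. The Ly49 receptor genes Klra1, Klra3, Klra5, Klra7 and Klra9 gave no call in any of the 3 comparisons. With the side of the split as a block, Klra3 (-0.84) and Klra9 (-1.08) were lower and Klra5 (1.27) higher in tumour-bearing than in healthy spleen. Without the block that comparison had intervals of -1.59 to 0.22 for Klra3 and -1.79 to 0.08 for Klra9. In tumour against healthy spleen Klra5 was at 1.95 (interval 0.14 to 3.75, edgeR adjusted p = 0.0979). It was called with only those 2 groups in the fit (1.90, edgeR adjusted p = 0.0183). It was also called without healthy spleen replicate 1 (2.80, edgeR adjusted p = 0.0383) and against healthy spleen replicates 2 and 3 alone (2.79, edgeR adjusted p = 9.44e-06). Those last 2 fits compare tumours with the same healthy libraries. The replicates of the last were picked by side from these counts, so its adjusted p is too small. Klra18, outside the list, was at -0.36. BALB/c mice carry another set of Ly49 genes than the C57BL/6 reference, and the ends of Klra3 (42.4% of stretches) and Klra9 (44.8%) are shared with each other and with further Ly49 genes, so the split of counts among them is uncertain. Against tumour-bearing spleen replicates 1 and 2 alone, 8 family genes were called, all lower, where 22.8% of tested genes were called, 13.8% higher and 9.04% lower. Against replicates 3 and 4 alone 9 were called, 5 of them higher, where 40.9% were, 22.4% higher and 18.5% lower. Against healthy spleen replicates 2 and 3 alone 9 were called, 4 of them higher, where 40.2% were and 21.6% were higher. The number of family genes tested in these fits is not reported here. Klra3 and Klra9 themselves differ between the sides, which were read from these counts. The counts of calls thus describe the split and carry no test. Klrg1 fell by 1.54 against tumour-bearing spleen replicates 1 and 2 alone and by 1.73 against tumour-bearing spleen replicates 3 and 4 alone.

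**Figure D4:**
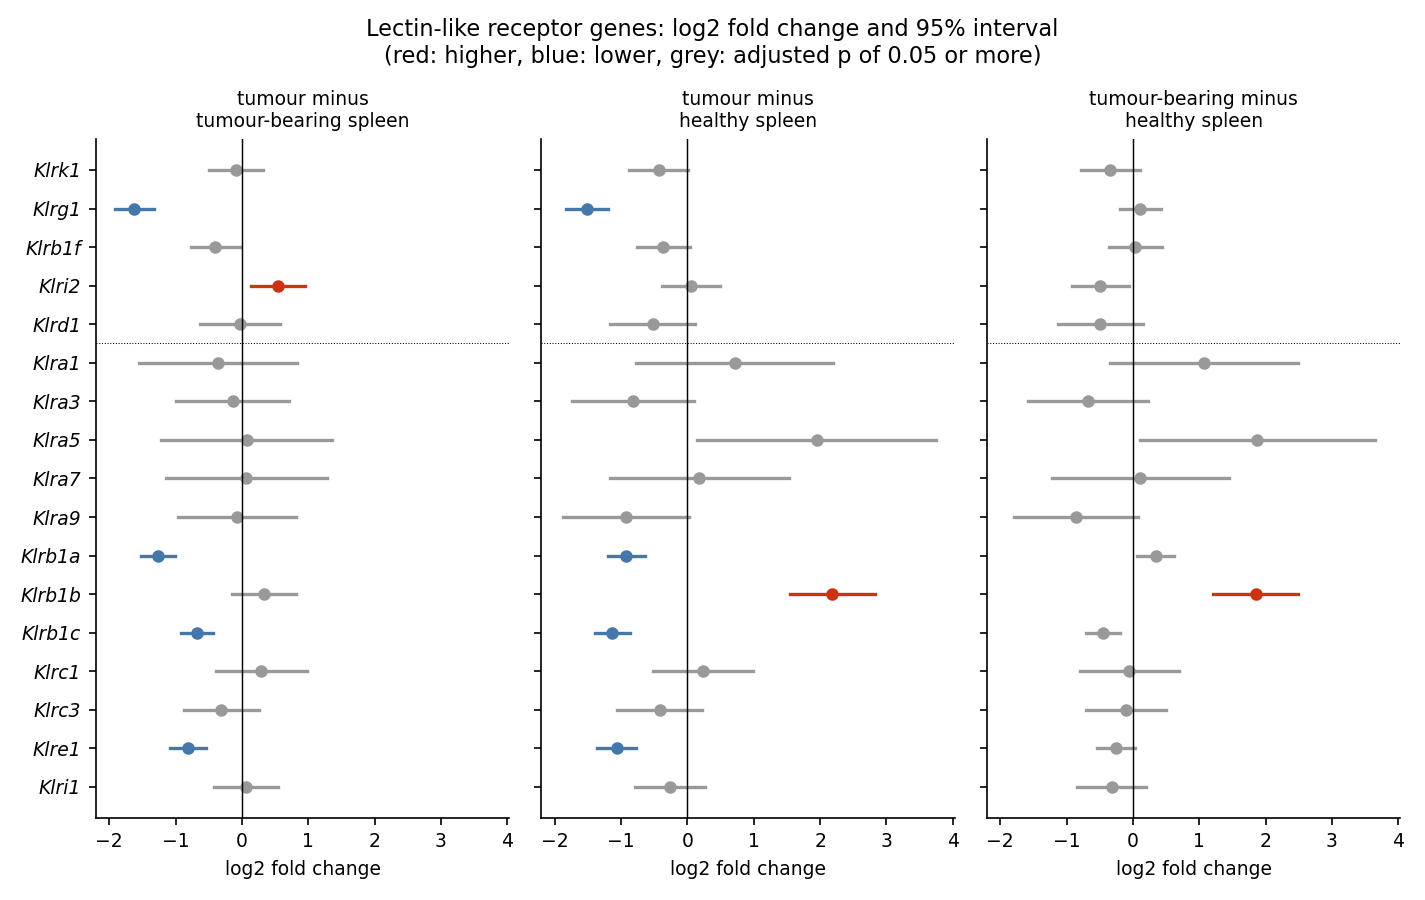
Log2 fold change (points) and 95% interval (lines) of the 17 tested receptor genes in the 3 comparisons of NK groups, with the 5 tested members above the dotted line. Blue is lower and red higher at an adjusted p under 0.05, and grey is not called; Klrg1, Klrb1a, Klrb1c and Klre1 are lower in both tumour comparisons, and Klrb1b is higher in the 2 comparisons with healthy spleen.

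Neither adaptor of NKG2D was called in any of the 3 comparisons. Hcst was at 1080 ± 284 CPM (SD, n = 3) in healthy spleens, 1163 ± 167 (SD, n = 4) in tumour-bearing spleens and 1085 ± 188 (SD, n = 4) in tumours. Tyrobp was at 3605 ± 910 (SD, n = 3), 3839 ± 400 (SD, n = 4) and 3514 ± 557 CPM (SD, n = 4). The groups overlapped for both. Of the 14 tested adaptors, kinases and other signal carriers, 4 fell and 1 rose against tumour-bearing spleen, where 29.0% of all tested genes were called, so 5 of 14 is near the background share. The kinase Syk fell by 0.83, the zeta chain Cd247 by 0.53, the kinase Lck by 0.46 and the lipid kinase subunit Pik3cd by 0.50, and the regulatory subunit Pik3r1 rose by 0.83. Against healthy spleen Syk fell (SE 0.163, edgeR adjusted p = 1.02e-04), as did Pik3cd (-0.52), while Pik3r1 (0.70) rose. The Syk calls held under every setting run. Against tumour-bearing spleen the Lck call was lost without tumour-bearing spleen replicate 3 or tumour replicate 1, and that of Pik3cd without tumour-bearing spleen replicates 3 or 4 or tumour replicates 2 or 3 (edgeR adjusted p from 0.0542 to 0.0866). Against tumour-bearing spleen replicates 1 and 2 alone, the positive side, the calls of Cd247 (-0.33, edgeR adjusted p = 0.121), Lck (-0.32, edgeR adjusted p = 0.121) and Pik3cd (-0.29, edgeR adjusted p = 0.199) were all lost. Against healthy spleen Pik3r1 and Pik3cd lost theirs without healthy spleen replicates 2 or 3, and Pik3cd also without tumour replicates 2 or 3 (edgeR adjusted p from 0.0516 to 0.160). Of the phosphatases recruited by inhibitory receptors, Inpp5d (SHIP1) rose by 0.51 and 0.69 in the 2 tumour comparisons. Ptpn6 (SHP-1) fell by 0.49 against tumour-bearing spleen, and was 0.70 higher in tumour-bearing than in healthy spleen (edgeR adjusted p = 0.00913, and 0.0930 without healthy spleen replicate 2). The part of the T cell marker difference between the spleens in the Ptpn6 result was not tested.

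Of 19 ligand genes of these receptors, 5 were tested in the NK table. H60b, a ligand of NKG2D, was at 12.3, 5.89 and 6.60 CPM in healthy spleens, 24.4, 10.1, 9.27 and 8.68 CPM in tumour-bearing spleens and 57.4, 72.5, 72.8 and 45.6 CPM in tumours. All tumour libraries lay above all spleen libraries, and the rise was 2.28 against tumour-bearing (SE 0.286, edgeR adjusted p = 6.31e-06) and 3.04 against healthy spleen (SE 0.366, edgeR adjusted p = 3.97e-06). Such a separation upward was found for 18.5% of tested genes against healthy spleen, and its share against tumour-bearing spleen is not reported here. By the other measure, 15.8% of tested genes were called higher against tumour-bearing and 16.5% against healthy spleen. Cdh1, which encodes E-cadherin, a ligand of KLRG1, had 32 to 58 counts a library in tumours and 0 to 4 in spleens, and was called higher in both tumour comparisons. Cdh1 is also 1 of the 2 listed carcinoma markers, whose summed share was 0.0025% to 0.0051% in tumours and at most 0.000357% in spleens. The part of carcinoma RNA in this result was not tested. Clec2i was higher in tumour than in tumour-bearing spleen (1.52, edgeR adjusted p = 0.0305), a call that was lost without tumour-bearing spleen replicates 2, 3 or 4 or tumour replicates 1 or 2 (edgeR adjusted p from 0.0691 to 0.0827). H2-T23, the gene of Qa-1, was at 397, 410 and 492 CPM on average in healthy spleen, tumour-bearing spleen and tumour, and was not called.

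Clec2d, which encodes the ligand of NKR-P1B, followed the spleen split more than the groups. It was at 792 CPM in the positive-score healthy library and at 112 and 177 CPM in the others, and at 1336 and 1128 against 203 and 248 CPM in tumour-bearing spleens, a ratio of 5.48 and 5.46. Tumour libraries had 467 to 676 CPM, and no comparison called it.

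In 3 libraries of cancer-associated fibroblasts (sCAFs) from such tumours, sorted without PDPN, CD45, CD31, EPCAM or GFP on the cells, no member was among the 12235 genes listed. The table was deposited separately, so its levels are not compared with NK levels. H2-T23 was at 342, 275 and 165 CPM on raw totals, Clec2d at 46.2, 63.0 and 36.0 CPM and Cdh1 at 8.52, 40.2 and 18.8 CPM. H60b had 14, 3 and 2 counts.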

How the data were processed

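The members and gene lists were chosen with earlier results of these data known. The authors deposited raw counts per gene symbol, and all values were whole numbers. Per the submitters' processing notes, reads were handled with bcl2fastq, STAR 2.4.2a and HTSeq on mm10; the annotation, strand setting, treatment of multiply mapped reads and use of molecular identifiers are not given in the sources used here. The header lines held spaces in place of a tab, so columns were read by position. Of the 10210 genes filterByExpr kept 8471. Libraries were scaled by TMM, and 1 quasi-likelihood model (edgeR 4.0.16, R 4.3.3, robust) with the group as the term was fitted to all 11 NK libraries. Its 3 contrasts were adjusted by Benjamini-Hochberg over all tested genes, with calls at 0.05. CPM use TMM library sizes, and correlations use log2 CPM with a prior count of 2. DESeq2 1.42.0, other scalings, no filter, left-out libraries, a replicate block, summed paralogues and the spleen split were alternatives. Scripts were tested on simulated data. Floors cover counting error only. The series calls the replicates independent. Every member is named, along with called genes of the lists, direct partners and nearest relatives, and the 3 genes most correlated with each member, of which 1 is not reported here. Sequences are GENCODE M21 transcripts, 1 per gene (longest coding sequence). Shares of marker genes use library totals.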

Additional observations from a re-analysis of the deposited data

Results flagged for a closer look

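Of 36 groups of 4 libraries tested over the receptor genes, 3 held a library far from the other 3, where chance gives about 1 in 20 groups. Klrb1f was at 316 CPM in tumour replicate 4, and at 390 to 399 CPM in the other tumour libraries, a gap of 0.887 of the group's range. Klrb1c was at 309.9 CPM in tumour-bearing spleen replicate 3, and at 329 to 332 CPM in the others, a gap of 0.885 of the range. Klrc2 was at 7.25 CPM in tumour replicate 2, which is 5 counts, and at 4.75 to 4.92 CPM in the other tumour libraries, a gap of 0.934 of the range. The causes were not tested.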

How the results depend on the processing

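The Klrg1 calls held under every setting run, with log2 changes from -1.73 to -1.53 against tumour-bearing and from -1.61 to -1.42 against healthy spleen. Members called in tumour against tumour-bearing spleen went from 2 to 1 without the filter on low counts and with DESeq2, and ranged from 1 to 2 when a library was left out. With only those 2 groups in the fit 3 were called, 1 higher and 2 lower, and 2 were called, both lower, with upper-quartile scaling, with paralogues summed and against replicates 1 and 2 alone. Against healthy spleen they went from 1 to 2 with paralogues summed, and ranged from 1 to 2 over left-out libraries. With paralogues summed, 1 of the 2 in each tumour comparison was the sum of all Klrb1 genes, which stood for Klrb1f. That sum was at -0.68 against tumour-bearing and -0.63 against healthy spleen (edgeR adjusted p = 5.09e-04 and 0.00192). It includes Klrb1a and Klrb1c, which are not members and fell in tumours, so it is no call of Klrb1f itself. Family genes called between the spleens went from 1 to 2 with DESeq2, which added Klrb1c as lower, and with only those 2 groups in the fit. With the side of the spleen split as a block that comparison gave 3 members, 10 family genes (4 higher, 6 lower) and 691 genes in all, in place of 0, 1 and 134, and 42 to 125 genes over left-out libraries. Family genes called in tumour went from 5 to 8 and 9 against tumour-bearing spleen replicates 1 and 2 or 3 and 4 alone, and from 5 to 9 against healthy spleen replicates 2 and 3 alone. Klra9, not called at -0.08, was higher in tumours at 0.61 (edgeR adjusted p = 0.0115) against tumour-bearing spleen replicates 3 and 4 alone, and lower at -0.56 (edgeR adjusted p = 0.0118) against replicates 1 and 2 alone. The sides were read from the same counts, so adjusted p values of fits to a single side are too small. The causes were not tested.

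Replicate numbers are shared by the groups, but the labels do not say that they pair animals, and deviations of libraries with the same number correlated at -0.05 to 0.29, -0.20 to 0.04 and -0.35 to 0.50 in the 3 comparisons, so they were not taken as pairs. Not every library correlated best with its own number. With the replicate block 2 members were called against tumour-bearing spleen, 1 against healthy spleen and 0 between the spleens, and 2626, 2648 and 115 genes in all. Against healthy spleen the block ended the Zeb2 call (edgeR adjusted p = 0.0908) and gave calls to Klra5 (2.23, edgeR adjusted p = 0.0448), Cd247 (-0.41, edgeR adjusted p = 0.0385), Lck (-0.38, edgeR adjusted p = 0.0464) and Clec2i (1.20, edgeR adjusted p = 0.00772).

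Depth limits Klrc2, with 4 to 13 counts a library. Groups of 3 and 4 libraries, reference ends shared among Klrc and Klra genes, and BALB/c alleles read on a C57BL/6 reference limit the other genes.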
